A study of Mus musculus and Rattus norvegicus with 37 samples.

Results

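The livers of mice labelled L-Sirt1 KO were compared with those of floxed control mice by RNA-seq, over 14 of the 37 samples of the series. These samples were chosen by their genotype labels, and comprised 8 libraries labelled L-Sirt1 KO (4 with saline, 4 with LNA29) and 6 floxed libraries (2 with saline, 4 with LNA29). L-Sirt1 KO mice lack Sirt1 in the liver by design, and the floxed mice were their littermates. All were female, on the C57BL/6J background and 15 to 20 weeks old, and their livers were taken in the fed state at day 7 after 1 subcutaneous injection of saline or LNA29. LNA29 is a mixture of locked nucleic acid inhibitors against miR-29a and miR-29b/c, given at 20 mg/kg each. A floxed saline mouse had been left out by the authors as an outlier, so that this group held 2 livers. The promoter that drives Cre and the deleted part of Sirt1 were not given in the sources used here. WT livers (C57BL/6J, 9 to 11 weeks old, n = 7) are quoted as values only.

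LNA29 was given in both genotypes, so each genotype comparison holds treatment as a covariate. The mature miR-29 sequences that it targets (RefSeq, GRCm38.p6) are shown because every LNA29 library was made under their inhibition. The capitals mark the seed, bases 2 to 8, which is the same in all 3. miR-29a is read from chr6:31062673-31062694 on the minus strand, miR-29b from chr6:31063025-31063047 on the minus strand and from chr1:195037091-195037113 on the plus strand, and miR-29c from chr1:195037600-195037621 on the plus strand.
mmu-miR-29a-3p: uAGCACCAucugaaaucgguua
mmu-miR-29b-3p: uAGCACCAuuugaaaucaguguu
mmu-miR-29c-3p: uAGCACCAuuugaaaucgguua

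Sirt1 is an NAD-dependent deacetylase of histones, transcription factors and their coactivators. In the liver it is known for its action on PGC-1alpha, FoxO1, SREBP and nuclear receptors, and thereby for roles in fatty acid oxidation, lipogenesis, gluconeogenesis and bile acid handling. The liver also carries a sex-dependent programme of secreted lipocalins, cytochromes P450 and sulfotransferases, which the pattern of growth hormone release sets.

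The libraries held an estimated 42.6 to 67.8 M reads each, and Pearson's r between any pair of libraries was 0.972 to 0.986 over log2 values. No pair of libraries was identical. Both genotypes were present on each of 3 flow cells. Hepatocyte markers, among them Alb and Ttr, summed to 5421680 to 7407830 normalized counts in KO-labelled libraries and 5060630 to 8078440 in floxed ones, and 0 of 10 were called changed. All levels are normalized counts, which are the authors' estimated gene counts divided by library size factors, here scaled together over both genotypes. Replicates are the separate livers of a group, and p-values judge differences against the spread between these libraries.

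The targeted gene itself did not separate the genotypes. Sirt1 (chr10:63319005-63381704, mm10, minus strand) stood at 550.1, 594, 614 and 565 normalized counts in the KO-labelled saline libraries and at 545, 569.6, 588 and 533 in the KO-labelled LNA29 libraries. It stood at 587 and 494 in floxed saline, and at 631, 570.2, 681 and 639.5 in floxed LNA29 libraries. The 8 KO-labelled values lay within the range of the 6 floxed values. The log2 fold change of KO-labelled over floxed was -0.06 (SE 0.0770, 95% interval -0.22 to 0.10, limma adjusted p = 0.858), and a two-sided exact permutation test gave p = 0.38. WT livers averaged 607 normalized counts. Which part of Sirt1 was deleted is not given in the sources used here, and exons cannot be seen in these gene-level values. The values therefore do not check the labels, and the libraries are called KO-labelled throughout. Gm16145 overlaps Sirt1 on the opposite strand, and whether the counting used strand is not given in the sources used here. Around Sirt1, 0 of 18 genes tested within 1000000 bases of either end were called, with log2 fold changes of -0.21 to 0.37.

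**Figure D1:**
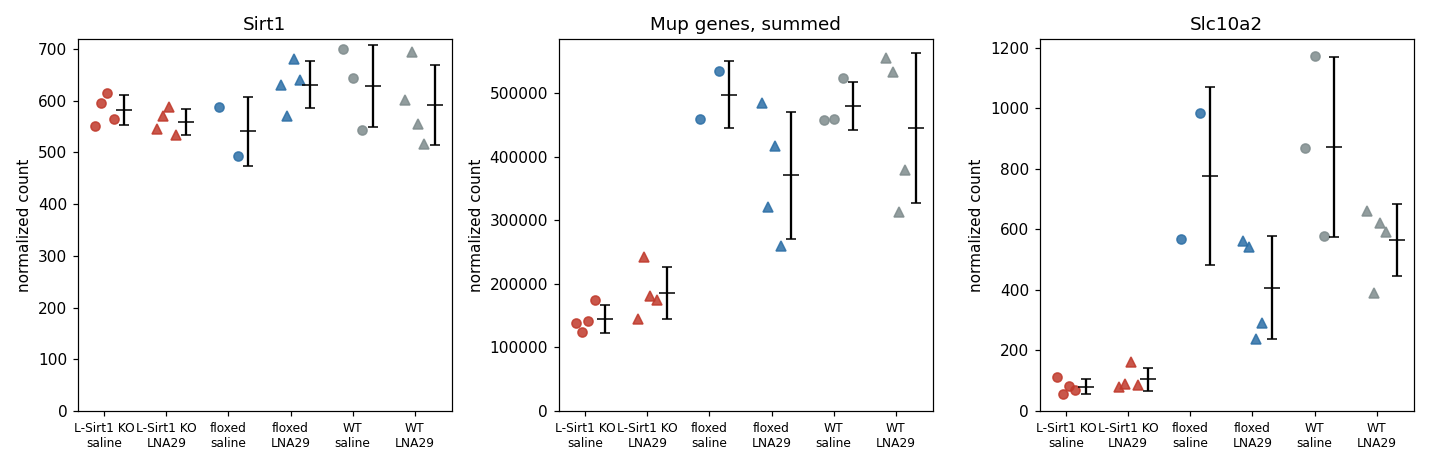
Normalized counts of Sirt1, of the summed Mup genes and of Slc10a2 in each library, by genotype and treatment, with the mean and SD of each group beside the points. Circles are saline and triangles LNA29. Sirt1 lies between 494 and 699 in all libraries shown, while the KO-labelled libraries are below every floxed and WT library for the other measures.

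Across all genes, 242 of 15845 tested passed the study's criteria (p under 0.05, adjusted p under 0.2, mean above 50 and fold change above 1.2), which is 1.53% of genes. Of these, 86 were higher in KO-labelled livers (0.543% of genes tested) and 156 were lower (0.985%). The counts of calls in gene lists below are to be read against these shares. The change was at least 2-fold in 6 genes that rose and 48 that fell. The values of the 8 KO-labelled and 6 floxed libraries did not overlap in 76 of the called genes, 20 higher and 56 lower, against 103 of all genes tested (0.65%). At an adjusted p under 0.05, 22 higher and 78 lower genes were left. All 242 genes pointed the same way in saline and in LNA29, and 241 of them in each of the 3 flow cells. As the genes were selected on these same libraries, this agreement is largely set by the selection and is not replication. The median log2 fold change of all genes was 0.01. Leaving out floxed LNA29 replicate 3 lowered the count of calls to 149. The authors had normalized the KO-labelled libraries in a table of their own and the floxed and WT libraries in another, so that genotype and table cannot be told apart. These are bulk livers, in which fewer cells of a type and less RNA per cell cannot be told apart either.

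The largest falls were those of the major urinary proteins, the Mup genes. These encode small secreted lipocalins that bind pheromones, are made by hepatocytes and are more abundant in males. Mup19 stood at 40.9, 27.8, 2.63 and 780 normalized counts in KO-labelled saline libraries and at 761, 958, 70.6 and 96.0 in KO-labelled LNA29 libraries. In floxed livers it stood at 33835 and 30432 with saline and at 22414, 13602, 31217 and 6927 with LNA29. Every KO-labelled value was thus below every floxed value. The log2 fold change of Mup19 was -7.36 (SE 1.06, adjusted p = 0.00374), and the exact permutation p was 0.000952, the smallest that the splits of these samples can give. Genes named for lack of overlap have a permutation p at or near this floor by selection, so it adds no support. WT livers spanned 12449 to 54267 normalized counts of Mup19.

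Mup15 fell by 5.45 on the log2 scale (adjusted p = 0.00373), with floxed livers at 2016 ± 1014 (SD, n = 6) and KO-labelled livers at 59.9 ± 49.1 (SD, n = 8) normalized counts. Mup17 fell by 3.85 (adjusted p = 0.00248), with means of 1958 ± 958 and 139 ± 76.7. Mup18 fell by 3.73 (adjusted p = 0.000547), with means of 6308 ± 3790.4 and 449.5 ± 191. In none of these 3 did the genotypes overlap. Mup12, Mup7 and Mup16 fell by 2.89, 2.56 and 2.55 on the log2 scale. Mup16 was the most abundant of these, at 23499.8 ± 7253 normalized counts in floxed and 4236 ± 2266 in KO-labelled livers.

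Of 21 Mup genes in the tables, a family singled out after its values were seen, 19 could be tested, 14 were called lower and 0 higher, against 0.985% and 0.543% of all genes. In 12 of the 19 the genotypes did not overlap. The median log2 fold change of the 19 was -2.35. Mup10, an abundant member, was at 180609 ± 48751 normalized counts (SD, n = 6) in floxed and at 51005 ± 24848 (SD, n = 8) in KO-labelled livers (log2 fold change -1.86, adjusted p = 0.00692). Mup3 moved less, with means of 133417 ± 29128 and 95602 ± 14606 and overlapping groups (log2 fold change -0.50, adjusted p = 0.137), and its call was lost in 6 of the 14 fits that left out 1 library. Mup20, also known as darcin, fell by 0.72 (adjusted p = 0.103), and its adjusted p was 0.235 without floxed LNA29 replicate 3. Mup21 went the other way at 0.51 and was not called (adjusted p = 0.491). Summed over the family, normalized counts were 123848 to 242588 with a median of 159272 in KO-labelled livers, 259331 to 534831 with a median of 438512 in floxed livers, and 313035 to 555003 with a median of 458612 in WT livers. Many Mup genes are near-identical copies, so that reads can be shared between members and the values of such single members are uncertain. Of 5 Mup pseudogenes tested, 2 were called lower, Mup-ps16 and Mup-ps17.

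The Mup genes tested lie between bases 59964294 and 62150863 of chromosome 4 (GRCm38). That chromosome held 28 of the 156 lower genes (17.9%) and 6.39% of the genes tested. Mup genes made up 14 of the 28 and Mup pseudogenes 2, which leaves 12 others. RefSeq promoters (GRCm38.p6, 250 bases before to 50 after the start) were found for 13 of the 19 Mup genes. The windows of 2 strongly lowered members, Mup19 and Mup18, and of a weakly lowered one, Mup3, are shown to let the family be compared, each 5′ to 3′ along the gene. The capitals mark TATATAA, which has the form of the box that the TATA-binding protein recognises. Mup19 is chr4:61782175-61782474, Mup18 is chr4:61674045-61674344 and Mup3 is chr4:62087268-62087567, all on the minus strand.
Mup19: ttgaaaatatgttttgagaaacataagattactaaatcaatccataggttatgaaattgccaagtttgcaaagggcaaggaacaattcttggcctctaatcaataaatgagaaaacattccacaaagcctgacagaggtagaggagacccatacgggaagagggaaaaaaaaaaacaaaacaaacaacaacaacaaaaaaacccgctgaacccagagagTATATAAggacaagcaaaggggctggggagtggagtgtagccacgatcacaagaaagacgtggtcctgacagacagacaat
Mup18: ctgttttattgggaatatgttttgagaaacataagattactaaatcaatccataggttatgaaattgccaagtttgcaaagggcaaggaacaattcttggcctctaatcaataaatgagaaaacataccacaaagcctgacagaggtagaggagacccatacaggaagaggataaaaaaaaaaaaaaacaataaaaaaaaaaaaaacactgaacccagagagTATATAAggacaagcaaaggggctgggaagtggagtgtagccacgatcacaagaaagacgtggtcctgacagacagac
Mup3: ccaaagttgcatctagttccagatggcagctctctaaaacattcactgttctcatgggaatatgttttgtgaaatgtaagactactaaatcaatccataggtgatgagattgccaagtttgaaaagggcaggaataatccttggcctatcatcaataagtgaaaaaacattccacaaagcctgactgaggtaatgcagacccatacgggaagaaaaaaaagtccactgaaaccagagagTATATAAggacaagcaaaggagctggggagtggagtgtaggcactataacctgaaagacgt

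TATATAA was found on either strand in 12 of the 13 Mup promoters (92.3%), against 214 of the 11217 promoters of genes tested (1.91%). In the windows shown it began 31 bases before the annotated start of Mup19, 28 before that of Mup18 and 11 before that of Mup3. Outside the Mup entries it was found in 2 of 107 promoters of lower genes (1.87%), and it was in 2 of 60 promoters of higher genes (3.33%). The longest run shared without a mismatch by a pair of Mup promoters was 20 to 275 bases over the 78 pairs, with a median of 64. TTCNNNGAA, which reads the same on both strands and is the usual form of a STAT5 site, was in 0 of the 13 Mup promoters and in 8.45% of all. It was in 7.63% of the promoters of lower genes and 8.33% of those of higher genes. Each match or lack of one describes these windows of 300 bases only.

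**Figure D2:**
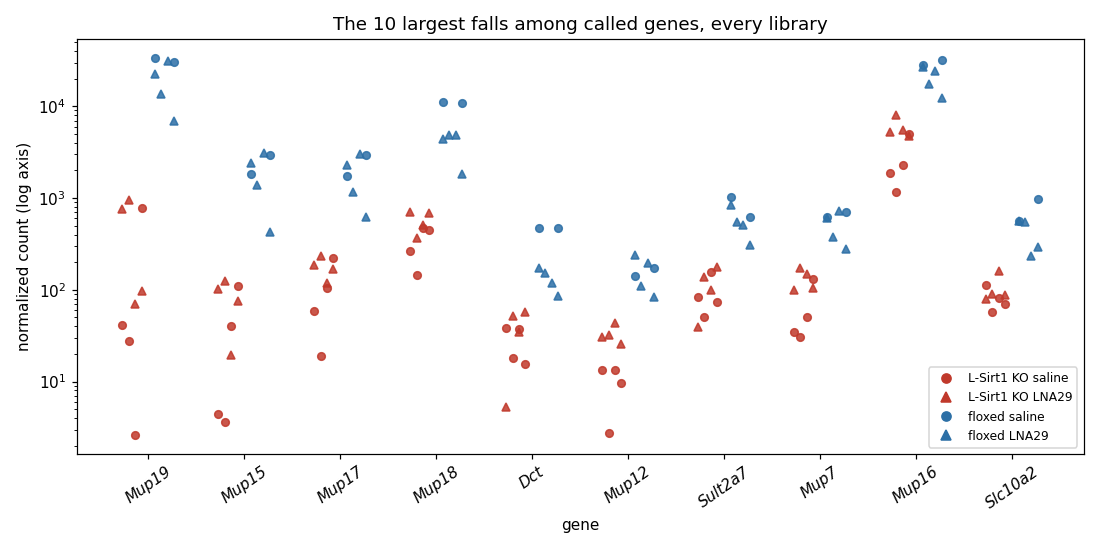
Normalized counts on a log axis of the 10 largest falls among called genes (mean above 50) whose genotypes do not overlap, with 1 point per library (red KO-labelled, blue floxed, circles saline, triangles LNA29). In Mup19 the KO-labelled values span 2.63 to 958 and the floxed values 6927 to 33835.

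Of 16 genes known to be higher in male liver that could be tested, 8 were called lower and 0 higher, against 0.985% and 0.543% of all genes. Their median log2 fold change was -0.70, against 0.01 for all genes, and 2 of the 16 were positive. This list shares Mup1, Mup3, Mup7, Mup20 and Mup21 with the Mup family. Serpina1e, a serpin of the alpha-1-antitrypsin cluster, averaged 5741 ± 6382 normalized counts (SD, n = 8) in KO-labelled and 35623 ± 27801 (SD, n = 6) in floxed livers (log2 fold change -2.47, adjusted p = 0.00692), with overlapping groups. Its neighbours in the cluster are close copies, and the sum over the cluster had a median of 1164740 in KO-labelled and 1209390 in floxed livers. Susd4, a membrane regulator of complement, was at 136 ± 36.4 in floxed and 26.1 ± 13.1 in KO-labelled livers (log2 fold change -2.39, adjusted p = 0.00201) without overlap. Slco1a1, a sinusoidal uptake carrier for organic anions, fell by 1.96 (adjusted p = 0.109), and its call was lost without floxed saline replicate 2, floxed LNA29 replicate 3 or floxed LNA29 replicate 6 (adjusted p up to 0.25).

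Genes known to be higher in female liver gave fewer calls. Of 22 tested, 2 were called lower and 0 higher, and their median log2 fold change was 0.14. The median was -0.40 with saline, where 6 of the 22 were positive, and 0.29 with LNA29, where 19 were. The list holds 4 genes with an interaction adjusted p under 0.2, Cyp3a16, Cyp3a41a, Cyp3a41b and Cyp3a44. The pair called, Sult3a1 and Sult3a2, are sulfotransferases. Sult3a1 was at 5887 ± 2347 normalized counts in floxed and 2932 ± 1299 in KO-labelled livers (adjusted p = 0.109), and Sult3a2 fell by 2.21 on the log2 scale (adjusted p = 0.0658). Of the 14 fits that left out 1 library, 3 lost the call of Sult3a1 (adjusted p up to 0.276) and 1 that of Sult3a2 (0.217 without floxed saline replicate 2). Among 14 genes of growth hormone and IGF1 signalling, Igfbp3, a carrier of IGF1, was the only one called, while 4 of the 14 were positive and the median was -0.23. Socs2, an inhibitor of the pathway, was lowest at -0.85 (adjusted p = 0.468). Igfbp3 was at 1199 ± 124 in floxed and 1501 ± 128 in KO-labelled livers (log2 fold change 0.32, adjusted p = 0.112), and at 1485 in WT livers, and its call was lost in 4 of the 14 fits. Ghr, Stat5a and Stat5b, which carry the growth hormone signal, had log2 fold changes of -0.03, -0.01 and 0.04 and were not called.

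Transport and bile acid genes included a further large fall. Slc10a2, the sodium-dependent bile acid carrier known from ileum and bile ducts, stood at 113, 57.4, 81.6 and 70.7 normalized counts in KO-labelled saline and at 78.8, 90.8, 161 and 87.5 in KO-labelled LNA29 libraries. In floxed livers it stood at 568 and 984 with saline and at 563, 542, 236 and 289.6 with LNA29. The groups did not overlap, and the log2 fold change was -2.44 (SE 0.295, adjusted p = 0.000967, exact permutation p = 0.000952). The permutation p is again set by the lack of overlap for which the gene was named. WT livers spanned 391 to 1173. Of 23 listed genes of bile acid synthesis, transport and FXR signalling, Slco1a1 and Cyp27a1 were called lower and 0 higher, and the median was -0.07. Slc10a2, and Abcc3 below, were not on this list. Cyp27a1, the mitochondrial sterol 27-hydroxylase, fell by 0.28 on the log2 scale (adjusted p = 0.0633), a call lost in 3 of the 14 fits that left out 1 library. Abcc3, a basolateral exporter of conjugates, fell by 0.28 (adjusted p = 0.1996), a call that was lost in 13 of the 14 fits that left out 1 library.

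A sulfotransferase and a melanogenic enzyme were also among the 10 largest falls called without overlap. Sult2a7, of the hydroxysteroid sulfotransferase family, was at 640.3 ± 253 normalized counts in floxed and 102 ± 49.8 in KO-labelled livers (log2 fold change -2.72, adjusted p = 0.00191). The Sult2a family as a whole did not fall. Of its 6 genes tested, 2 were negative, 1 was called lower and the median was 0.85. Its sum had a median of 28262 in KO-labelled and 24304 in floxed livers, with overlapping ranges. Sult2a1 was at 1.39 and was not called (adjusted p = 0.514). Dct, known as an enzyme of melanin synthesis, was at 245 ± 177 and 32.5 ± 18.1 (log2 fold change -2.96, adjusted p = 0.00876).

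Drug-metabolising enzymes were lowered in part. Cyp3a11, the main drug-oxidising P450 of mouse liver, stood at 108142, 116533, 104038 and 76310.3 normalized counts in KO-labelled saline and at 91648, 106028, 131145 and 103973 in KO-labelled LNA29 libraries. In floxed livers it stood at 175736 and 175835 with saline and at 241930, 216264, 221350 and 211719 with LNA29. The log2 fold change was -0.96 (SE 0.104, adjusted p = 0.000547), without overlap. Cyp2c54 was at 26189.6 ± 2579.6 in floxed and 13017 ± 3368 in KO-labelled livers (log2 fold change -1.01, adjusted p = 0.00403), and Cyp2c50 fell by 0.43 (adjusted p = 0.129). Aldh1a1, a retinal dehydrogenase, fell by 0.67 (adjusted p = 0.0658). The calls of Cyp2c50 and Aldh1a1 were lost when either of the floxed saline libraries was left out, and that of Cyp2c50 also without floxed LNA29 replicate 3 (adjusted p up to 0.33 for Cyp2c50 and 0.207 for Aldh1a1). Cyp3a11, Cyp2c54, Cyp2c50 and Aldh1a1 were the 4 genes called among 19 targets of the receptors CAR, PXR and AhR. The list had 0 called higher and a median of -0.12, against 0.985% of all genes called lower and 0.543% higher. Nr1i2 and Nr1i3, which encode PXR and CAR, had log2 fold changes of -0.08 and -0.12 and were not called.

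The Ugt1a locus gave opposite values for its members. Ugt1a9, singled out after its values were seen, was at 3769 ± 1832 normalized counts (SD, n = 8) in KO-labelled and 14637 ± 2721 (SD, n = 6) in floxed livers (log2 fold change -1.93, adjusted p = 5.87e-05), while Ugt1a5 was at 18910.4 ± 2983 and 9214 ± 3472 (log2 fold change 1.02, adjusted p = 0.00329). Neither overlapped between genotypes. Both are glucuronosyltransferases that share their last exons with the rest of the locus, and a quantifier can move reads between them, so each value is uncertain on its own. The sum over the Ugt1a genes had a median of 93321 in KO-labelled and 87011 in floxed livers, with overlapping ranges.

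Of the terminal complement genes, 3 were called lower. C8b, which was on the male-biased list, fell by 0.67 on the log2 scale (adjusted p = 0.0426). C8a and C9, singled out after their values were seen, fell by 1.21 (adjusted p = 0.0325) and 0.89 (adjusted p = 0.000967). C9 spanned 5538 to 7905 normalized counts in KO-labelled and 9622 to 15432 in floxed livers, and did not overlap. The other terminal complement genes tested were not called, with Hc (which encodes C5) at -0.13, C6 at -0.37, C7 at 0.23 and C8g at -0.27.

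**Figure D3:**
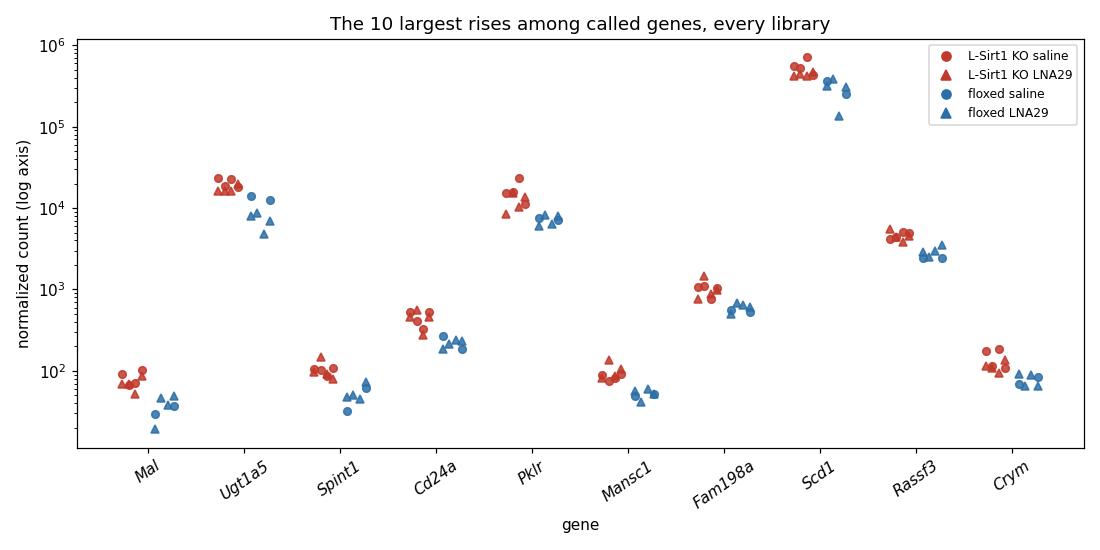
Normalized counts on a log axis of the 10 largest rises among called genes (mean above 50) whose genotypes do not overlap, with 1 point per library (red KO-labelled, blue floxed, circles saline, triangles LNA29). In Cd24a the KO-labelled values span 279 to 561 and the floxed values 184 to 266.

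Among called genes, rises were smaller than falls. The 10 largest rises among called genes without overlap were those of Mal, Ugt1a5, Spint1, Cd24a, Pklr, Mansc1, Fam198a, Scd1, Rassf3 and Crym, with log2 fold changes from 1.05 down to 0.69. Several of these genes are known from epithelia. Cd24a, a surface glycoprotein of biliary and progenitor cells, stood at 534, 406, 325 and 526 normalized counts in KO-labelled saline and at 461, 561, 279 and 454 in KO-labelled LNA29 libraries. In floxed livers it stood at 266 and 188 with saline and at 184, 216, 238 and 234 with LNA29. All KO-labelled values were higher than all floxed values (log2 fold change 0.97, adjusted p = 0.00875, SE 0.162, exact permutation p = 0.000952). Here too the permutation p follows from the lack of overlap for which the gene was named. Spint1, an inhibitor of epithelial serine proteases, was at 51.8 ± 14.2 in floxed and 103 ± 20.6 in KO-labelled livers (log2 fold change 1.01, adjusted p = 0.0141). Mal, a membrane proteolipid of apical sorting, was at 36.4 ± 10.8 and 76.0 ± 16.2 (log2 fold change 1.05, adjusted p = 0.0301). Rassf3, a Ras-association domain protein, was at 2794 ± 422 and 4631 ± 572 (log2 fold change 0.75, adjusted p = 0.00248). Crym, which binds thyroid hormone, was at 77.2 ± 12.4 and 130.2 ± 34.0 (log2 fold change 0.69, adjusted p = 0.0813), with an adjusted p of 0.236 without floxed saline replicate 2.

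Biliary markers were examined beside these genes. Of the 9 cholangiocyte markers tested, 1 was called, and 7 were positive, with a median of 0.40. Epcam, an epithelial adhesion molecule, was at 158 ± 38.4 normalized counts (SD, n = 6) in floxed and 272 ± 81.0 (SD, n = 8) in KO-labelled livers (log2 fold change 0.78, adjusted p = 0.125) with overlapping groups, and its call was lost in 5 of the 14 fits that left out 1 library. Krt19 was at 0.56, Spp1 at 0.40 and Sox9 at -0.43 on the log2 scale, and none of the 3 was called. The whole list of 10 summed to 4619 to 8985 in KO-labelled livers (median 5992) and to 4483 to 6527 in floxed livers (median 4989), with no marker averaging below 1. Its part in the rises of Cd24a and Spint1 was not tested. Ehf, Tspan8 and St14, epithelial genes singled out after their values were seen, rose by 1.14 (adjusted p = 0.0194), 0.85 (adjusted p = 0.181) and 0.79 (adjusted p = 0.19). The calls of Tspan8 and St14 were each lost in 11 of the 14 fits that left out 1 library. Cldn4, a tight junction protein also singled out afterwards, was at 40.1 to 65.0 normalized counts in KO-labelled and at 6.62 to 15.5 in floxed livers (log2 fold change 1.98, adjusted p = 0.000398). Its mean lies under 50, so it was not called.

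Lipogenic genes moved upwards in part. Pklr, the liver pyruvate kinase that feeds glycolytic carbon into lipid synthesis, stood at 15105, 15638, 23192 and 11325 normalized counts in KO-labelled saline and at 8573, 15232, 10451 and 13656 in KO-labelled LNA29 libraries. In floxed livers it stood at 7501 and 7225 with saline and at 5987, 8292, 6378 and 7938 with LNA29. The lowest KO-labelled value thus lay just above the highest floxed value (log2 fold change 0.87, adjusted p = 0.0176, SE 0.163). WT livers spanned 7569.6 to 16129, which overlaps the KO-labelled values. Scd1, the stearoyl-CoA desaturase, was at 413902 to 708068 in KO-labelled and 136478 to 386505 in floxed livers (log2 fold change 0.76, adjusted p = 0.124), and at 113706 to 648750 in WT livers. The call of Scd1 was lost without KO-labelled LNA29 replicate 2, KO-labelled LNA29 replicate 4 or floxed saline replicate 5 (adjusted p up to 0.32). Pklr and Scd1 were the 2 genes called among 21 of fatty acid and triglyceride synthesis, where 18 were positive and the median was 0.30. Elovl6, a fatty acid elongase, was at 0.70 (adjusted p = 0.281), and Acly, which makes cytosolic acetyl-CoA, at 0.36 (adjusted p = 0.678). Fasn, the fatty acid synthase, was at 0.30 (adjusted p = 0.773), and Pnpla3, a lipid droplet hydrolase, at 1.02 (adjusted p = 0.612). Within treatments, 14 of the 21 were positive with saline (median 0.17) and 19 with LNA29 (median 0.22). Pklr was at 1.10 with saline and 0.72 with LNA29, and Scd1 at 0.83 and 0.71. In the same order Acly was at -0.03 and 0.62, Fasn at 0.04 and 0.47, and Pnpla3 at 0.42 and 1.41. Of 2 more genes of the study, Acss2 was at -0.16 and 0.66 and Thrsp at -0.50 and 1.18. The list held 0 genes with an interaction adjusted p under 0.2.

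Fatty acid oxidation gave 1 call among 20 genes, with a median of -0.12 and 3 positive. Acaa1b, a peroxisomal thiolase, fell by 0.31 (adjusted p = 0.142), a call lost in 7 of the 14 fits that left out 1 library. Cpt1a, the mitochondrial carnitine acyltransferase, was at 0.11 (adjusted p = 0.92), and at -0.059 without floxed saline replicate 2. In 24 genes of the PPAR-alpha response, Cyp4a14, a fatty acid omega-hydroxylase, was the 1 gene called, at -1.14 with an adjusted p of 0.1996, a call lost in 11 of the 14 fits. Cyp4a14 was at -0.10 within saline and at -1.84 within LNA29, and this difference was not called (interaction adjusted p = 0.281). Fabp2 and Fitm1, known for fatty acid binding and for lipid droplet formation, fell by 0.81 (adjusted p = 0.00403) and 0.99 (adjusted p = 0.00591). They are among 20 genes that the study names, a list chosen on these livers and so not independent of them, of which Pklr was called higher and Fabp2 and Fitm1 lower. Cd36, a fatty acid translocase singled out after its values were seen, spanned 1393 to 2252 normalized counts in KO-labelled and 2284 to 4526 in floxed livers (log2 fold change -0.91, adjusted p = 0.00692).

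**Figure D4:**
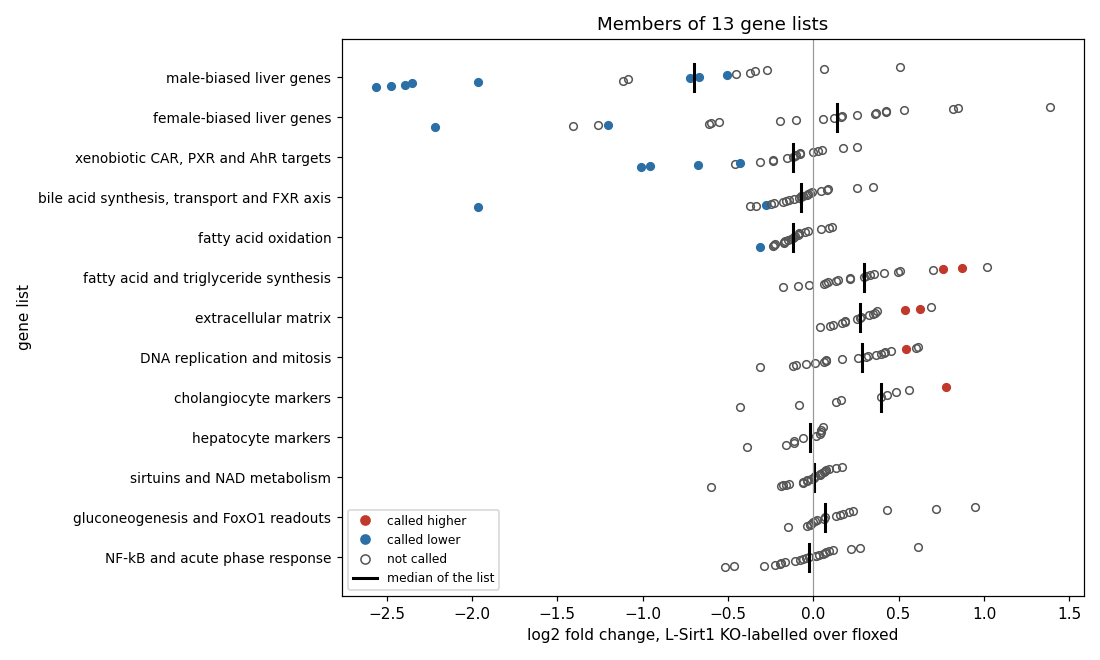
Log2 fold change of KO-labelled over floxed livers (x axis) for each tested member of 13 gene lists, with called genes filled and the list's median as a black bar. The median is -0.70 in the male-biased genes and 0.30 in fatty acid and triglyceride synthesis, against 0.01 over all genes.

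Matrix and dividing-cell genes were mostly positive. Of 16 extracellular matrix genes tested, 2 were called higher, against 0.543% of all genes. All 16 were positive, with a median of 0.27, against 8321 positive of the 15845 genes tested. Col1a2 rose by 0.53 (adjusted p = 0.0886) and Col3a1 by 0.62 (adjusted p = 0.13), while Col1a1 at 0.69 was not called (adjusted p = 0.275). Col1a1 was at 0.0052 within saline and at 1.15 within LNA29, and this difference was not called (interaction adjusted p = 0.282). Leaving out 1 library ended the call of Col1a2 in 2 and that of Col3a1 in 7 of 14 fits. Collagens are known miR-29 targets. In KO-labelled livers Col3a1 was at 2737, 1877, 1633 and 1979 with saline and at 4945, 8072, 8362 and 6253 with LNA29. In floxed livers it was at 1521 and 1729.5 with saline and at 3171, 3799, 3301 and 5286 with LNA29. Against WT livers in place of floxed ones the log2 fold changes were -0.0079 for Col1a2 and -0.12 for Col3a1, so that both directions turned. Markers of stellate cells and fibroblasts summed to 20597 to 24711 in KO-labelled and 20884 to 23529 in floxed livers, and 1 of the 10, Pdgfrb, was called at 0.27 (adjusted p = 0.188), a call lost in 12 of 14 such fits. Their part in the matrix values was not tested. Mki67, a marker of cycling cells, rose by 0.54 (adjusted p = 0.177), the only call among 20 genes of replication and mitosis, of which 16 were positive, and a call lost in 10 of 14 such fits. Ccnd1, cyclin D1, was at 0.61 and was not called (adjusted p = 0.26).

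Other single members passed within lists that otherwise gave few or no calls. Hamp2, a hepcidin, was at 15938 ± 7586 normalized counts in floxed and 39659.5 ± 20126 in KO-labelled livers (log2 fold change 1.26, adjusted p = 0.175) with overlapping groups, and its call was lost in 11 of 14 fits that left out 1 library. Cox7a1, a respiratory chain subunit, rose by 0.58 (adjusted p = 0.0385). Of 10 periportal hepatocyte genes, 9 were positive and the median was 0.11, and the P450 Cyp2f2 was both the 1 negative member and the 1 called, falling by 0.71 (adjusted p = 0.0107). Cyp2e1, a P450 of pericentral hepatocytes, fell by 0.31 (adjusted p = 0.181), a call lost in 10 of 14 such fits. Pericentral genes had a median of -0.28, with 1 of 11 positive and 2 called lower, and summed to a median of 481586 in KO-labelled and 557542 in floxed livers, with overlapping ranges.

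A number of lists, among them pathways known for hepatic Sirt1, held 0 calls. At the 1.53% of all genes that were called, lists of this size often hold none, so this tells little about them. Of 22 genes of sirtuins and NAD metabolism, 0 were called, with a median of 0.00. Nnmt, which methylates nicotinamide, was farthest from 0 in this list at -0.60 (adjusted p = 0.695). None of the 17 gluconeogenesis and FoxO1 readouts was called (median 0.07), nor any of 24 genes of cholesterol synthesis and uptake (median -0.08) or 19 clock genes (median 0.22). The same held for 23 NF-kB and acute phase genes (median -0.02), 29 interferon-stimulated genes (median 0.00), 15 p53 targets (median 0.03), 16 genes of the integrated stress and unfolded protein response (median -0.04), 17 NRF2 targets (median 0.07) and 16 genes of autophagy and lysosome (median -0.05). Igfbp1, an insulin-repressed FoxO1 target, was at 0.95 with values of 1234 to 32527 normalized counts in floxed livers (adjusted p = 0.655), a spread that limits what the comparison can show.

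Markers of other cell types were also followed. None of the 10 Kupffer cell and macrophage markers, 10 sinusoidal endothelial markers, 10 lymphocyte markers, 4 tested neutrophil markers or 7 red blood cell markers was called. With 1.53% of all genes called, lists of this size often hold no call. In that order 10, 10, 6, 4 and 6 were positive, against 8321 of the 15845 genes tested. The medians were 0.09, 0.13, 0.10, 0.28 and 0.18. Adipocyte markers summed to 293 to 2264 normalized counts in KO-labelled and 293 to 414 in floxed livers. Cfd, the adipocyte protease adipsin, was at 0, 0.911, 1.92 and 857 in KO-labelled saline and at 325, 0, 78.6 and 1.77 in KO-labelled LNA29 libraries. Pancreatic acinar markers Cpa1, Cpb1 and Prss2 averaged under 1 normalized count.

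The comparison was then made within each treatment. With saline, 4 KO-labelled against 2 floxed livers gave 177 called genes, 52 higher and 125 lower (1.12% of genes tested). Each of the 6 fits that left out 1 saline library moved this count by over 1.5 times, to between 27 without floxed saline replicate 5 and 830 without KO-labelled saline replicate 1. With LNA29, 4 against 4 gave 197, 69 higher and 128 lower (1.24%). That count fell to 121 without KO-labelled replicate 2, 74 without KO-labelled replicate 4, 51 without floxed replicate 3, 49 without floxed replicate 6 and 125 without floxed replicate 8. The 44 genes called in both in the same direction made up 24.9% of the saline calls and 22.3% of the LNA29 calls. For Mup19 the log2 fold change was -9.54 with saline and -5.91 with LNA29, and for Mup18 it was -5.19 and -2.75. For neither was the difference between treatments called (interaction adjusted p = 0.543 and 0.205). Slc10a2 was at -3.24 and -1.91, Cyp3a11 at -0.81 and -1.05, and Cd24a at 0.97 and 0.97. Genes of the PPAR-alpha response were positive in 21 of 24 with saline (median 0.32) and in 3 of 24 with LNA29 (median -0.41). Fatty acid oxidation genes were positive in 16 of 20 (median 0.09) and 2 of 20 (median -0.27). Over all genes the medians were 0.00 and 0.02. In these lists Fgf21 was the 1 gene with an interaction adjusted p under 0.2.

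**Figure D5:**
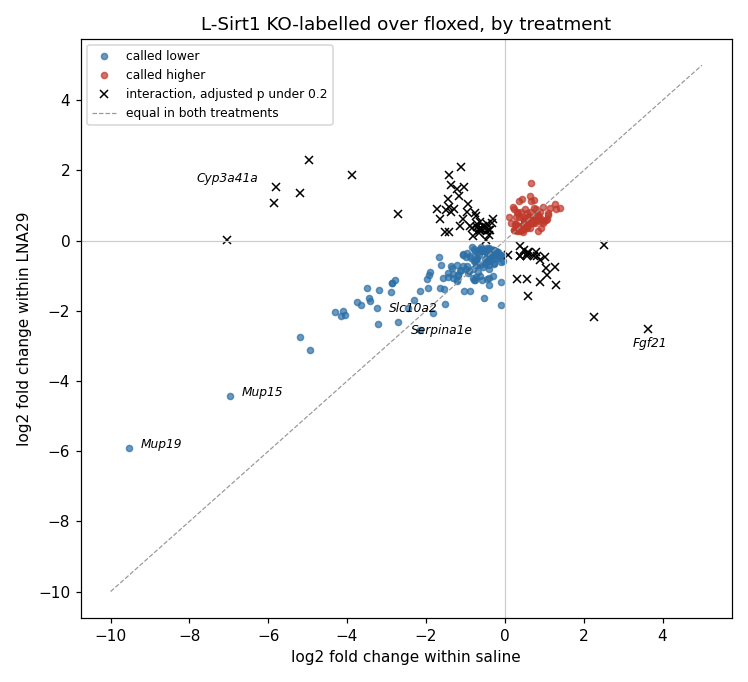
Log2 fold change of KO-labelled over floxed livers within saline (x axis) and within LNA29 (y axis) for the 242 called genes (points) and the 75 genes with an interaction adjusted p under 0.2 (crosses). Called genes lie in the lower left or upper right quadrant, which their selection on these same libraries largely sets. Mup19 is at -9.54 and -5.91.

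The difference of the genotype effect between treatments passed an adjusted p under 0.2 in 75 genes (0.473%), with the effect more positive under LNA29 in 50 of them and more negative in 25. By all 4 criteria 62 genes passed (0.391%). Only 1 gene, Rpl7a-ps11, had an adjusted p under 0.05. The count of 75 rests on single libraries, since it was 0 without floxed saline replicate 5 and 673 without KO-labelled saline replicate 1, and it was 1 with flow cell as a covariate. Rpl7a-ps11 is a ribosomal protein pseudogene, with 195 and 175 normalized counts in the floxed saline livers and at most 1.34 in each of the other 12 libraries. Among the WT livers, LNA29 replicate 1 was at 249.7 and the others were at 0. Reads can be shared between such a copy and its parent gene.

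Cyp3a41a, a female-specific P450, stood at 54362 and 64986 normalized counts in floxed saline and at 11899, 2379, 3711 and 316 in floxed LNA29 libraries. It stood at 488, 215, 1655 and 7246 in KO-labelled saline and at 15751, 4440, 9269 and 3537 in KO-labelled LNA29 libraries. The 2 floxed saline livers were thus above the other 12. WT livers, saline and LNA29 together, spanned 29620 to 95422 normalized counts of Cyp3a41a. Its genotype effect was -5.81 with saline and 1.53 with LNA29 on the log2 scale (interaction adjusted p = 0.186). Fgf21, a fasting-induced hepatokine, stood at 16.96 and 31.2 in floxed saline and at 114, 272, 334 and 769 in floxed LNA29 libraries. It stood at 198, 1012, 79.7 and 473 in KO-labelled saline and at 75.6, 66.8, 72.3 and 18.6 in KO-labelled LNA29 libraries. With saline the KO-labelled values were thus all higher than the floxed ones, and with LNA29 all were lower. Its genotype effect was 3.62 with saline and -2.52 with LNA29 (interaction adjusted p = 0.126). The saline values rest on 2 floxed livers throughout.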

How the data were processed

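RNA-seq of mouse liver was used. The deposited values are a signal, namely gene counts estimated by the authors with Salmon after alignment with STAR to mm10 and divided by DESeq2 normalization factors, with KO-labelled and WT/floxed libraries normalized in separate tables. Low values were whole multiples of 1 read in 70.0% to 73.1% of cases (tolerance 0.005), so no count model was run. Entries without a name (381 of 48440, 0.0134% and 0.0144% of counts) and with a repeated name (130) were left out. The 14 columns were scaled by median of ratios over 12741 genes with a mean of at least 50 in both tables (factors 0.981 to 1.02), and WT values with all columns. limma 3.58.1 (R 4.3.3, data.table version 1.17.8; lmFit, eBayes with trend) was run on log2(normalized count + 1) for genes with a mean of at least 10, with treatment as covariate and Benjamini-Hochberg adjustment. Fold changes are on this scale and understate those of low genes. A fit of the 4 group means gave the effects within treatments and the interaction. Exact permutation tests were two-sided over all splits within treatments. The fit was tested on simulated data. Gene positions are from GENCODE for GRCm38, joined by symbol, and figures were drawn in Python 3.11.15 with matplotlib 3.10.9. Named genes were Sirt1, the 10 largest rises and falls called without overlap and in the same direction in both treatments, called and farthest members of each list, genes of the study and interaction genes. The members and lists were chosen with earlier results of these data known. Alternatives are given in the closing section.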

Additional observations from a re-analysis of the deposited data

Results flagged for a closer look

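In 180 groups of 4 libraries (60 genes), 6 held a library whose gap to its nearest neighbour, over the group's range, passed Dixon's 95% critical value, and chance gives about 1 in 20 groups. Ugt1a5 was at 19529 normalized counts in KO-labelled LNA29 replicate 4, against 16046 to 16360 in the others of its group. Fam198a was at 756 in KO-labelled saline replicate 3, against 1029 to 1093. Mup18 was at 1845 in floxed LNA29 replicate 8, against 4371 to 4853, and still above every KO-labelled library. Col1a1 was at 513 in floxed LNA29 replicate 3, against 760 to 817. Fasn was at 32250.5 in KO-labelled LNA29 replicate 3, against 25584 to 26021. Cfd was at 857 in KO-labelled saline replicate 4, against 0 to 1.92.

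The difference of the genotype effect between treatments, tested as an interaction in limma, passed an adjusted p under 0.2 in genes that included the following. As LNA29 minus saline on the log2 scale the difference was 7.33 for Cyp3a41a, 7.28 for Cyp3a16, 7.07 for Rpl7a-ps11, 6.91 for Hist2h3c1, 6.57 for Cyp3a41b, -6.15 for Fgf21, -4.42 for Fut1, -2.65 for Tent5b, -2.58 for Sstr2 and -2.18 for Lor. The adjusted p was 0.00853 for Rpl7a-ps11, and from 0.115 for Cyp3a41b to 0.186 for Cyp3a41a in the other 9. Rpl7a-ps11, Hist2h3c1, Fut1, Tent5b and Sstr2 averaged only 12.4 to 27.7 normalized counts over the libraries of both genotypes. Their means lie under 50, so these genes did not pass all 4 criteria. Each difference rests on 2 floxed saline livers, and without floxed saline replicate 5 none passed the limit.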

How the results depend on the processing

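Against 242 calls, a pseudocount of 10 gave 229, no minimum mean 169, trimmed mean scaling 240, no treatment covariate 188 (181 of them among the 242), an adjusted p under 0.05 100, values as deposited 246 (43.5% of them higher, against 35.5%), flow cell as a covariate 245 and sample weights 266. Leaving out 1 library gave 149 to 260. Adding WT livers to the floxed controls gave 525, and WT in place of floxed, chosen after seeing the data, 1855 (46.6% higher). WT mice were younger, and the cause was not tested. Replicate numbers did not pair the samples (correlation of deviations 0.0741 for the saline number 2 and -0.087 for the LNA29 number 3). With the replicate number as a block, which leaves 5 residual degrees of freedom, 3 genes were called (Cyp2d40, Ugt1a9 and Gm6135), 0 of the 20 largest changes, 0 Mup genes and 0 on the lists, while all 20 kept their sign.

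Of the 20 largest changes, 17 to 20 stayed called under every other alternative. Mup calls were 12 to 16 of 19 under every alternative but the block. List calls, 32 in all, were 21 without the treatment covariate, 12 at an adjusted p under 0.05, 54 with WT added, 121 with WT in place, and 15 to 34 with 1 library left out. Within saline, flow cell as a covariate (added after seeing the data) gave 98 calls, and leaving out 1 library 27 to 830. Within LNA29 the latter gave 49 to 216. The interaction count was 83 with a pseudocount of 10, 1 with flow cell, and 0 to 673 with 1 library left out. Sirt1 stayed uncalled throughout, at -0.13 to -0.03 with 1 library left out. With WT in place of floxed, the direction turned for Col1a2 (-0.0079), Col3a1 (-0.12), Sult2a1 (-0.97) and Cpt1a (-0.47), and Cpt1a also turned with WT added (-0.20) and with 1 library left out (-0.059 to 0.22). Of 59 called genes followed singly, 36 kept their call in each fit that left out 1 library and 23 lost it in at least 1.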
